A study of Mus musculus with 39 samples.

Results

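Thermogenic fat is read in these data through 9 genes that brown and beige adipocytes use to turn fuel into heat: Ucp1, Cidea, Prdm16, Ppargc1a, Dio2, Adrb3, Elovl3, Cox8b and Cox7a1. They were taken by symbol, and all 9 are among the 21561 Ensembl genes that both deposited count tables list. Mouse gubernaculum, the cord of mesenchyme and muscle that anchors the fetal testis and draws it toward the scrotum, was sequenced as bulk RNA in 5 groups of 3 libraries, and testis in 8 groups of 3. At postnatal day 8 (P8) the gubernaculum came from wild-type (WT) mice, from INSL3-KI mice and from INSL3-KO mice, and at P23 from WT and INSL3-KI. The testis groups were the same 3 genotypes at P8 and at P23, and WT and INSL3-KI mice at P40. All mice were males on a C57BL/6J background. INSL3-KI mice were homozygous for the cDNA of minke whale INSL3 at the mouse Insl3 locus, and INSL3-KO mice were Insl3 knockouts by label. Both changes are in the germ line, so every cell of these mice carries them. P8 testis libraries labelled INSL3-KO nevertheless held Insl3 at 13.4 to 17.8 CPM, while those of INSL3-KO testis at P23 had 0, 5 and 0 counts. INSL3-KI testis held it at 0.379 to 0.725 CPM at P8 and at 11.1 to 12.5 CPM at P40. Insl3 encodes the Leydig cell hormone that acts on the gubernaculum through the receptor RXFP2. INSL3-KO gubernaculum at P23 was not analysed here.

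Brown adipocytes burn fatty acids in mitochondria whose inner membrane is made leaky to protons by uncoupling protein 1, and beige adipocytes are fat cells within white depots that can take on the same state. Noradrenaline starts the process by binding the beta-3 adrenergic receptor (Adrb3), which raises cAMP. The cell then activates thyroid hormone locally through type 2 deiodinase (Dio2) and, through the transcriptional regulators Prdm16 and Ppargc1a (PGC-1alpha), builds mitochondria with the uncoupling protein (Ucp1). Several of these genes are not private to fat. Cox8b and Cox7a1 encode the heart and skeletal muscle forms of cytochrome c oxidase subunits, Ppargc1a and Dio2 are also active in muscle, and Adrb3 is present in white adipocytes as well.

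Positions are those of the mouse genome build GRCm38 (GENCODE vM21). Ucp1 is at chr8:83290352-83298452 on the plus strand, Adrb3 at chr8:27225776-27250616 on the minus strand, Cox8b at chr7:140898945-140900446 on the minus strand and Cox7a1 at chr7:30184144-30186078 on the plus strand. Dio2 is at chr12:90724552-90738438, Ppargc1a at chr5:51454250-51567726 and Prdm16 at chr4:154316125-154636873, all on the minus strand, and Elovl3 is at chr19:46131897-46135694 on the plus strand. RefSeq promoter entries (GRCm38.p6) were at hand for 6 of the 9. The windows printed here run from 250 bases before the start to 30 bases from it, and are those of 4 genes that moved in opposite ways in the gubernaculum: Ucp1, which rose in both mutants, Dio2, which fell in INSL3-KO, and the muscle-type oxidase subunits Cox8b and Cox7a1, which fell together in INSL3-KI. Capitals mark the letters TATAAA (the TATA box), TGACG (the core of a cAMP response element), AGGTCA (the core bound by nuclear receptors) and CCAAT, which appears as ATTGG when the match is on the other strand. All were searched on both strands.
Ucp1 (chr8:83290098-83290377, plus strand): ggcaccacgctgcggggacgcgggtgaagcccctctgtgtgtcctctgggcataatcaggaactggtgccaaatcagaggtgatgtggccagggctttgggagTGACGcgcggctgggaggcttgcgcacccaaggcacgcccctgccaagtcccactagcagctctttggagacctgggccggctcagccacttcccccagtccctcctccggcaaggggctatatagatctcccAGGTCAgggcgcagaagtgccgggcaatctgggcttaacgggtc
Dio2 (chr12:90739009-90739288, minus strand): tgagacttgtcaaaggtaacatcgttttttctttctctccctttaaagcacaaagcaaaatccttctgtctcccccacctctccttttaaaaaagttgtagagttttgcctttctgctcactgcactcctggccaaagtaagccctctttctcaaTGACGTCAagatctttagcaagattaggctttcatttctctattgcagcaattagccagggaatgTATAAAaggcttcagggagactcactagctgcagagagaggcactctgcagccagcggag
Cox8b (chr7:140900417-140900696, minus strand): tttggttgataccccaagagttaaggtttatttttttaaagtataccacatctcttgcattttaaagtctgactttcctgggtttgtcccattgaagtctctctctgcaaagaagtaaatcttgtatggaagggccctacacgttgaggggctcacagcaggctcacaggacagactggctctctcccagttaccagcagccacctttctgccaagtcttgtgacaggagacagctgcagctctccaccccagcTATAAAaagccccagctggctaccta
Cox7a1 (chr7:30183921-30184200, plus strand): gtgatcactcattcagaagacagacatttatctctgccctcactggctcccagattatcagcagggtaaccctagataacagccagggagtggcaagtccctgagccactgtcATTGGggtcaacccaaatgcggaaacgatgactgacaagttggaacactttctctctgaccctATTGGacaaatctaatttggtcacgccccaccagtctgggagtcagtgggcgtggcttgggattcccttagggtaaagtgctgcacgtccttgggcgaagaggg
The Ucp1 window holds 1 TGACG and 1 AGGTCA. The Dio2 window holds TATAAA and 2 overlapping TGACG matches, 1 on each strand, which together spell TGACGTCA. Cox8b has TATAAA alone and Cox7a1 has CCAAT at 2 places. These 2 windows have none of the 4 motifs in common. The TATAAA of Cox8b begins at offset 4 from the RefSeq start, that is past it, and the TATAAA of Dio2 at offset -30. Of all 32851 RefSeq windows of this length, 19.9% hold TGACG, 15.3% AGGTCA, 13.1% TATAAA and 36.1% CCAAT. These matches describe the letters only. The RefSeq start of Dio2 lies upstream of the GENCODE gene given above, so its window lies wholly outside that gene and holds the start of 0 annotated transcripts.

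Total counts ranged from 29861447 to 45260372 per gubernaculum library, and levels are given as CPM (counts relative to library size, scaled by TMM over the 15 gubernaculum libraries). Calls rest on edgeR's quasi-likelihood test, with a Benjamini-Hochberg adjusted p below 0.01 and a change of 2-fold or more as the limits. The INSL3-KO libraries stand in a second table, so in each comparison that involves INSL3-KO gubernaculum the table and the genotype cannot be told apart. Insl3 itself was at 0.751 to 2.75 CPM in WT gubernaculum at P8 and had 0 counts in all 6 mutant libraries of that age. At P23 it was at 0.284 to 1.07 CPM in WT and at 0 to 0.863 CPM in INSL3-KI (12, 28 and 0 counts), so these groups overlapped. In WT gubernaculum at P8, 15 skeletal muscle markers summed to 40652 to 43830 CPM and 6 fibroblast markers to 42854 to 45942 CPM. Of the adipocyte genes, Adipoq was at 0.180 to 0.221 CPM in WT at P8 and Retn at 0 counts in all 3 libraries, while both mutants at P8 held Adipoq at 83.0 CPM or more. Where a level differs in these bulk samples, fewer cells of a type and less RNA per cell cannot be told apart.

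At P23 the INSL3-KI libraries stood apart from one another: the summed level of 12 pan-adipocyte genes was 18968 CPM in replicate 1, 38817 in replicate 2 and 1467 in replicate 3, against 941 to 1525 in WT. The epididymal gene list was at 2249 CPM in replicate 1, 1.97 in replicate 2 and 7285 in replicate 3, and WT replicate 3 at P23 also carried it, at 1060 CPM against 2.22 and 0.819 in the other WT libraries. At P8 the same list reached 619 to 1567 CPM in INSL3-KI and 991 to 1108 in INSL3-KO against 1.01 to 1.96 in WT, nearly all of it Crisp1. Its part in the results was not tested.

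At P8, Ucp1 and Adrb3 were higher in both mutants than in WT, and the muscle-type subunits Cox8b and Cox7a1 were lower in INSL3-KI and not in INSL3-KO. In INSL3-KI against WT, 8 of the 9 genes were tested, 3 were called lower and 2 higher, where 9.7% of all genes tested were called lower and 14.4% higher (of 15500 genes, 1503 lower and 2238 higher, or 1133 and 3144 when libraries were scaled by size alone, which moves the median of all genes to 0.34). The median log2 fold change of the 8 was -0.80, against 0.02 over all genes. In INSL3-KO against WT all 9 were tested, 1 was called lower and 2 higher, where 15.2% of all genes were called lower and 15.5% higher. Their median was 0.59, against 0.03 over all genes. Between the mutants INSL3-KI was the lower for 4 of 8 and the higher for 0, where 10.5% of all genes were called lower and 11.9% higher (1650 lower and 1865 higher, or 1224 and 2491 with size alone). Both mutants are set against the same 3 WT libraries.

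**Figure D1:**
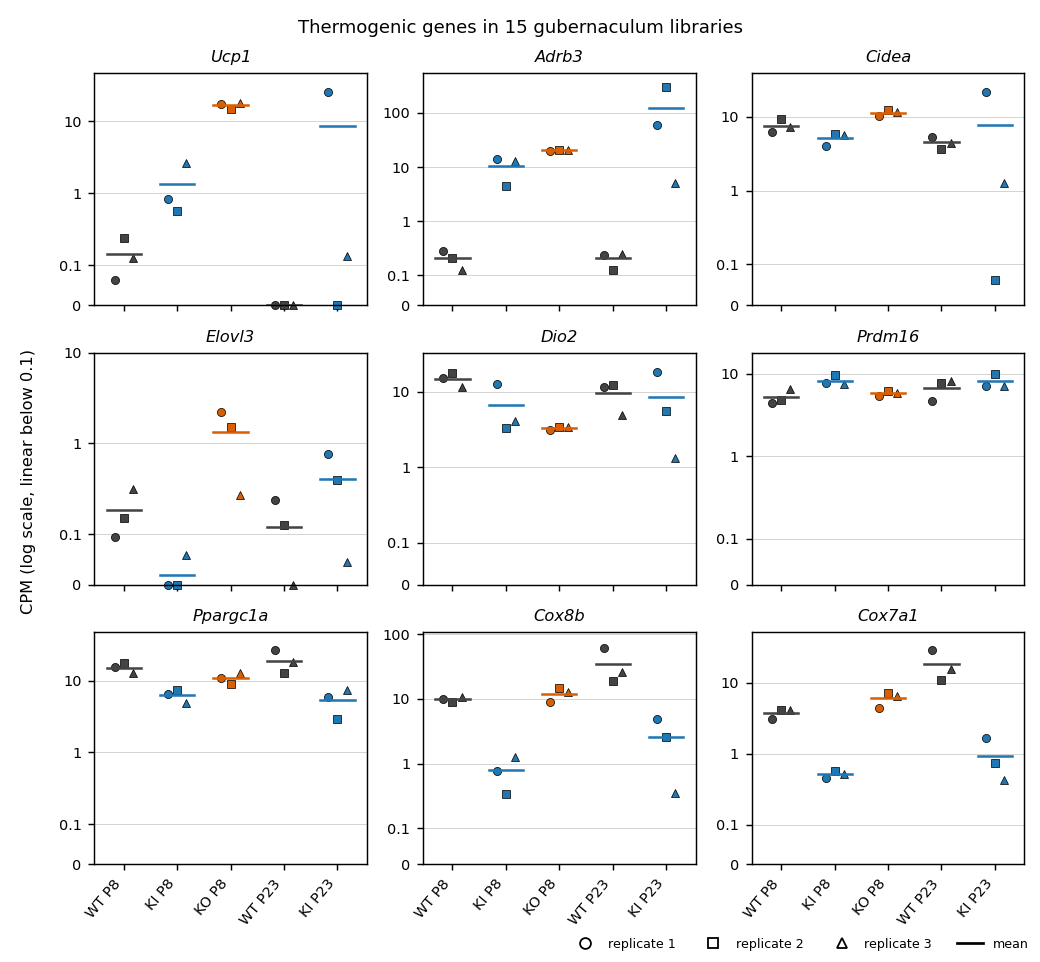
CPM of the 9 genes (vertical axis, log scale and linear below 0.1) in each gubernaculum library, with 1 point per library, a shape for each replicate and a bar at the group mean; KI and KO stand for INSL3-KI and INSL3-KO. Ucp1 and Adrb3 sit at 0.284 CPM or less in all 6 WT libraries, and the 3 INSL3-KI libraries at P23 are spread from 0 to 25.6 CPM for Ucp1 and from 5.08 to 302 CPM for Adrb3.

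Adrb3 is the receptor end of the pathway. It stood at 0.284, 0.210 and 0.127 CPM in the 3 WT libraries at P8, at 14.1, 4.53 and 12.9 CPM in INSL3-KI and at 20.1, 21.0 and 20.6 CPM in INSL3-KO. Every mutant library was above every WT library, and the INSL3-KO libraries lay close together. The log2 fold change was 5.68 ± 0.55 (SE, n = 3 against 3) in INSL3-KI, with an adjusted p of 7.15e-05, and 6.61 ± 0.24 in INSL3-KO, with an adjusted p of 1.69e-06 (edgeR). INSL3-KI lay below INSL3-KO by 0.96 on the log2 scale, and this difference did not pass (adjusted p = 0.0585). Adrb1, the beta-1 adrenergic receptor, was not called in either mutant.

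Ucp1, the uncoupling protein itself, was almost absent from WT gubernaculum at P8, with 2, 8 and 4 counts, or 0.0632, 0.240 and 0.127 CPM. INSL3-KI libraries had 0.836, 0.563 and 2.60 CPM and INSL3-KO libraries 17.0, 14.8 and 17.8 CPM, so the 3 groups did not overlap. Ucp1 rose by 6.80 ± 0.35 on the log2 scale in INSL3-KO (adjusted p = 5.42e-06, edgeR, and 0.0206 when all 5 groups shared 1 fit) and by 3.21 ± 0.79 in INSL3-KI (adjusted p = 0.00949). The INSL3-KI call is the weaker of the pair: it rests on 20 to 89 counts per library and was lost in 9 of 13 alternative settings, with adjusted p from 0.000918 to 0.208 over them. INSL3-KI was 12.4-fold below INSL3-KO (log2 difference -3.64 ± 0.53, adjusted p = 0.000869), which was also lost in that fit (adjusted p = 0.125). Of its paralogs, Ucp3, the skeletal muscle form, fell by 2.57 in INSL3-KI, and Ucp2 was not called.

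Elovl3, a fatty acid elongase that brown fat induces in the cold, was scarce throughout. Its counts were 3, 5 and 10 in WT at P8, 0, 0 and 2 in INSL3-KI, and 84, 68 and 12 in INSL3-KO, that is 2.19, 1.52 and 0.274 CPM in the last. INSL3-KO replicate 3 fell within the WT range, and the increase of 2.80 ± 0.85 was not called (adjusted p = 0.0208), although it was with DESeq2 (adjusted p = 0.0041) and without that replicate (adjusted p = 0.00492). Elovl3 was not tested in INSL3-KI against WT. Other elongases were called: Elovl5, which elongates polyunsaturated fatty acids, rose by 1.58 ± 0.10 in INSL3-KI and by 1.55 ± 0.065 in INSL3-KO, and Elovl2 rose by 2.14 in INSL3-KO.

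Cidea, a lipid droplet protein of brown and beige fat, was present in every group, also in WT where Adipoq was near 0. Its level was 6.22, 9.19 and 7.15 CPM in WT, 3.98, 5.83 and 5.66 in INSL3-KI and 10.2, 12.3 and 11.4 in INSL3-KO. The 3 groups did not overlap. The difference passed between the mutants, where INSL3-KI was 2.19-fold lower (log2 difference -1.13 ± 0.19, adjusted p = 0.00154, edgeR), and not against WT (INSL3-KI adjusted p = 0.108, INSL3-KO adjusted p = 0.0228). Its call is close to the 2-fold limit and was lost in 5 settings. In 1 of them, the edgeR fit shared by all 5 groups, the fold held (log2 difference -1.14) and the adjusted p was 0.44. Its paralog Cidec, which marks large lipid droplets, went from 0.0947, 1.501 and 0.127 CPM in WT to 49.1, 93.5 and 83.5 CPM in INSL3-KI and 101, 107 and 98.2 CPM in INSL3-KO.

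Prdm16, a factor that directs cells to the brown fat fate, was called in neither mutant with TMM scaling. Its level was 4.45, 4.77 and 6.52 CPM in WT at P8, 7.62, 9.52 and 7.46 in INSL3-KI and 5.37, 6.22 and 5.85 in INSL3-KO. The INSL3-KI libraries all lay above the WT libraries, with a log2 difference of 0.69 ± 0.22 that was not called (adjusted p = 0.0288). It was called with library size alone (1.00, adjusted p = 0.00419). In INSL3-KO the difference was 0.15 ± 0.20 (adjusted p = 0.547), and between the mutants it was 0.50 ± 0.16 (adjusted p = 0.0268).

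Ppargc1a fell in INSL3-KI and Dio2 in INSL3-KO. Ppargc1a, a coactivator of mitochondrial genes, stood at 15.6, 17.4 and 12.7 CPM in WT, 6.54, 7.32 and 4.93 in INSL3-KI and 10.8, 8.85 and 12.6 in INSL3-KO. It was called lower in INSL3-KI by 2.36-fold (log2 fold change -1.24 ± 0.21, adjusted p = 0.00132), a call lost in 3 settings, and not in INSL3-KO (-0.50 ± 0.18, adjusted p = 0.0395). Its paralog Ppargc1b fell in both mutants, by 2.30 in INSL3-KI and by 2.76 in INSL3-KO. Dio2, which makes active thyroid hormone inside the cell, was at 15.1, 17.6 and 11.6 CPM in WT and at 3.16, 3.41 and 3.38 CPM in INSL3-KO, 4.45-fold lower with no overlap (log2 fold change -2.16 ± 0.19, adjusted p = 5.59e-05). That call was lost when all 5 groups shared 1 fit (adjusted p = 0.0326). In INSL3-KI it was at 12.8, 3.29 and 4.14 CPM. Replicate 1 lay within the WT range, the decrease was not called (-1.09 ± 0.48, adjusted p = 0.085), and without that replicate it was called, at -1.94 (adjusted p = 0.00089). Between the mutants neither was called, with -0.78 ± 0.21 for Ppargc1a (adjusted p = 0.0131) and 1.03 ± 0.51 for Dio2 (adjusted p = 0.112).

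Cox8b and Cox7a1 were lower in INSL3-KI than in WT and than in INSL3-KO. Cox8b was at 10.1, 8.86 and 10.8 CPM in WT, at 0.760, 0.338 and 1.28 in INSL3-KI and at 8.89, 14.6 and 12.8 in INSL3-KO. The INSL3-KI libraries fell below all others, by 12.1-fold against WT (log2 fold change -3.60 ± 0.42, adjusted p = 0.000184) and by 15.2-fold against INSL3-KO (-3.93 ± 0.46, adjusted p = 0.000305). Cox7a1 was at 3.06, 4.05 and 4.08 CPM in WT, at 0.456, 0.563 and 0.525 in INSL3-KI and at 4.46, 7.07 and 6.48 in INSL3-KO. It fell by 2.81 ± 0.33 against WT (adjusted p = 0.000196) and by 3.53 ± 0.27 against INSL3-KO (adjusted p = 5.12e-05) on the log2 scale. In INSL3-KO against WT neither was called (0.29 ± 0.20, adjusted p = 0.234 for Cox8b and 0.68 ± 0.24, adjusted p = 0.038 for Cox7a1). Cox8a, the form found in every tissue, was not called in INSL3-KI and rose by 1.02 ± 0.13 in INSL3-KO. Of 8 complex IV subunits found in every tissue, 2 were called lower in INSL3-KI (Cox7b and Cox5a), 1 higher in INSL3-KO (Cox6c), and 5 lower when INSL3-KI was set against INSL3-KO, with medians of -0.68, 0.61 and -1.40. The shares of all genes called in these comparisons are those given above.

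**Figure D2:**
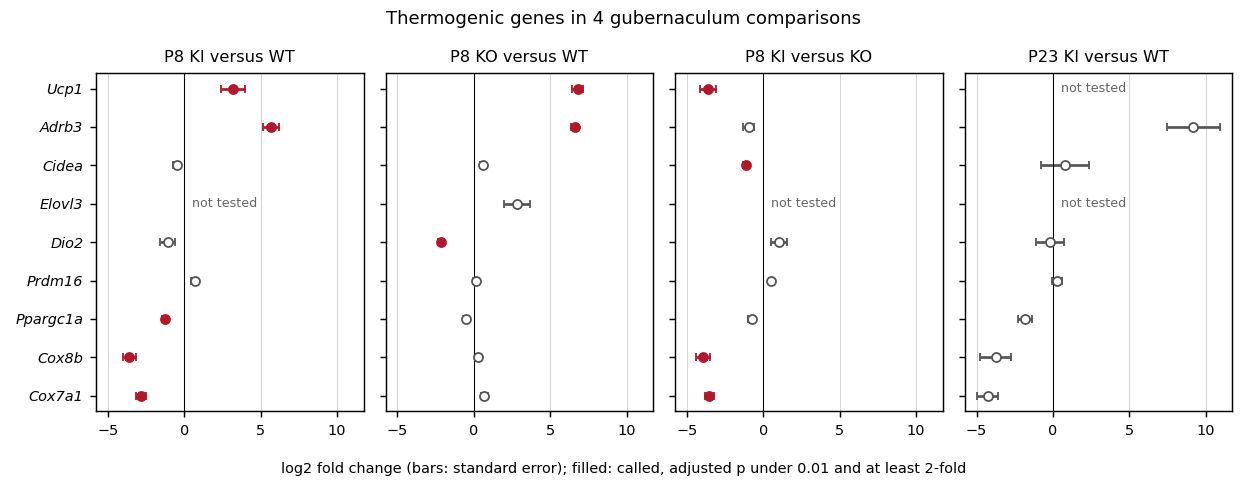
Log2 fold change of each gene (horizontal axis, bars 1 standard error) in 4 gubernaculum comparisons; filled points were called at an adjusted p under 0.01 and at least 2-fold. Adrb3 and Ucp1 lie far right of 0 in both mutants against WT at P8, and Cox8b and Cox7a1 lie left of 0 in INSL3-KI against WT and against INSL3-KO.

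Markers of whole tissues also differed between these libraries. The pan-adipocyte sum was 783 to 827 CPM in WT at P8, 2308 to 2874 in INSL3-KI and 4712 to 5020 in INSL3-KO. Of the 12 genes on that list, 9 were called higher in INSL3-KI (median log2 fold change 2.50) and 12 in INSL3-KO (median 2.67), none of them lower, and between the mutants 6 were called, all with INSL3-KI the lower. Adipoq (adiponectin) reached 83.3, 83.0 and 119 CPM in INSL3-KI and 289 to 310 CPM in INSL3-KO. Of 7 white adipocyte genes 3 were called higher and 3 lower in each mutant, with medians of 0.81 and 1.62. Their sum was 2160 to 2761 CPM in WT, above the 194 to 329 CPM of INSL3-KI and the 1025 to 1029 CPM of INSL3-KO, and Mest made up most of it in WT. The resistin gene Retn, at 0 counts in WT, reached 33.1 to 56.1 CPM in INSL3-KI and 155 to 175 CPM in INSL3-KO, and Nnat also rose, while Mest, Hoxc8 and Hoxc9 fell. The skeletal muscle sum was 741 to 1279 CPM in INSL3-KI and 8192 to 8889 CPM in INSL3-KO. Of its 15 genes, 14 were called lower in the first and 12 in the second. The sum of 6 smooth muscle genes was 3514 to 4025 CPM in WT, 14993 to 19176 in INSL3-KI and 7069 to 7500 in INSL3-KO. The shares of all genes called in these comparisons are those given above. The part of these lists in the levels of the 9 thermogenic genes was not tested.

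**Figure D3:**
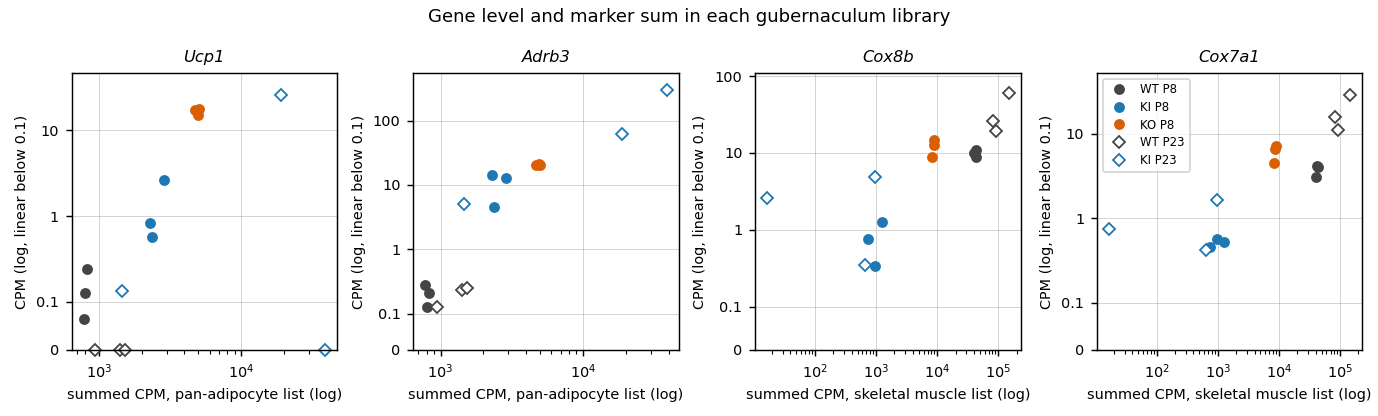
CPM of Ucp1 and Adrb3 against the summed CPM of 12 pan-adipocyte genes, and of Cox8b and Cox7a1 against the summed CPM of 15 skeletal muscle genes, with 1 point per gubernaculum library on log axes (vertical axes linear below 0.1); circles are P8 and open diamonds P23. The INSL3-KI library at P23 with the highest adipocyte sum, 38817 CPM, has Adrb3 at 302 CPM and Ucp1 at 0.

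Set against these sums, Adrb3 and Ucp1 parted. Per 1000 pan-adipocyte counts, Adrb3 had 0.363, 0.254 and 0.158 counts in WT at P8, 6.11, 1.92 and 4.49 in INSL3-KI and 4.27, 4.26 and 4.11 in INSL3-KO, and the mutants overlapped. Ucp1 had 0.0807, 0.290 and 0.158 counts in WT, 0.362, 0.238 and 0.903 in INSL3-KI and 3.61, 3.0 and 3.54 in INSL3-KO. INSL3-KO was 7.79-fold above INSL3-KI per adipocyte count with no overlap (exact permutation test, two-sided, p = 0.1, the smallest that 3 against 3 libraries can give). Against WT these ratios depend on the genes in the list, and Lpl at 296 to 317 CPM and Cd36 at 221 to 249 CPM made up most of it in WT: per Adipoq count, which was 0.180 to 0.221 CPM in WT, both Ucp1 and Adrb3 were lower in the mutants than in WT. For the muscle-type subunits the reference was the skeletal muscle sum. Cox8b had 0.248, 0.202 and 0.252 counts per 1000 skeletal muscle counts in WT at P8, 1.03, 0.346 and 1.00 in INSL3-KI and 1.09, 1.64 and 1.47 in INSL3-KO. In both mutants Cox8b therefore stood higher against muscle markers than in WT, and Cox7a1 did too, at 0.0754 to 0.0954 in WT, 0.410 to 0.616 in INSL3-KI and 0.544 to 0.795 in INSL3-KO. These muscle ratios were not tested, and the direction depends on the reference. Against the pan-adipocyte sum, Cox8b was 43.6-fold lower than in WT in INSL3-KI and 5.07-fold lower in INSL3-KO. Cox7a1 was 22.0-fold and 3.83-fold lower.

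Compared per length, in FPKM, the order of the 9 genes differed between the groups. In WT at P8 Cox8b led at 23.6 ± 2.2 FPKM (SD, n = 3), followed by Cox7a1 at 7.85 ± 1.3 and Cidea at 5.53 ± 1.1, whose ranges overlap, and then by Dio2 at 2.18 ± 0.46 and Ppargc1a at 2.05 ± 0.36, which overlap. Prdm16 was at 0.519 ± 0.11, and Elovl3, Ucp1 and Adrb3 were at most 0.165 FPKM in every library. In INSL3-KI, Cidea at 4.93 ± 0.96, Adrb3 at 4.65 ± 2.3 and Cox8b at 2.43 ± 1.5 FPKM were highest by mean, and their ranges overlap. By mean, Cox7a1 at 1.39, Dio2 at 1.30, Ppargc1a at 1.09 and Prdm16 at 1.07 FPKM came next. Ucp1 at 0.898 ± 0.76 and Elovl3 at 0.0145 FPKM were last. In INSL3-KO Cox8b led again at 32 ± 7.9 and Cox7a1 followed at 15.8 ± 3.7, with Ucp1 at 9.62 ± 0.84, Cidea at 9.29 ± 0.91 and Adrb3 at 7.60 ± 0.24. Ucp1 and Cidea overlap there, and Adrb3 lies below both. By mean, Elovl3 at 0.843 ± 0.62, Prdm16 at 0.646 and Dio2 at 0.545 FPKM closed the order in INSL3-KO. Elovl3 spread from 0.167 to 1.39 FPKM there and overlaps both Prdm16 and Dio2.

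The other brown and beige fat genes were 34 in number and moved in both directions. In INSL3-KI, 33 were tested, 8 were called lower and 9 higher, with a median log2 fold change of -0.10, and in INSL3-KO, 32 were tested, 7 lower and 9 higher, with a median of 0.01. Between the mutants 10 of 31 were lower in INSL3-KI and 5 higher, with a median of 0.02. Those that fell furthest in INSL3-KI were Zic1, Cpt1b, Fgf21 and Gatm. Zic1, a transcription factor of classical brown fat, was at 16.7 to 20.5 CPM in WT, 0 to 0.101 in INSL3-KI and 2.83 to 3.96 in INSL3-KO. Cpt1b, the muscle and brown fat enzyme that admits fatty acids to mitochondria, fell by 6.18 ± 0.38 in INSL3-KI and by 2.04 ± 0.098 in INSL3-KO. Among those that rose, Kcnk3, a potassium channel of brown adipocytes, went up by 5.41 ± 0.30 in INSL3-KI and 3.73 ± 0.34 in INSL3-KO. Mpzl2 and Tmem26, a surface protein used as a beige marker, rose by 3.29 and 2.57 in INSL3-KI. Otop1, a proton channel of brown fat, stood at 3.55 to 4.63 CPM in INSL3-KO against 0 to 0.126 in WT, and Nrg4, a secreted factor of brown fat, rose by 3.02 ± 0.21 there. Slc27a2, a fatty acid transporter and acyl-CoA synthetase, was at 3 counts or fewer in WT and at 2.81 to 47.2 CPM in INSL3-KO. Of 21 paralogs of the 9 genes, 19 were tested in INSL3-KI with 2 lower and 3 higher, 18 in INSL3-KO with 1 lower and 7 higher, and 19 between the mutants with 4 lower and 0 higher, with medians of 0.11, 0.63 and -0.21.

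At P23, the 3 INSL3-KI libraries differed widely in thermogenic genes. Ucp1 had 0 counts in the 3 WT libraries, which allows up to 0.119 CPM, and 929, 0 and 6 counts in INSL3-KI, or 25.6, 0 and 0.133 CPM. It was not tested. Replicate 1 with its Ucp1 also had the most Cidea, at 21.5 CPM against 0.0616 and 1.26 in the other INSL3-KI libraries and 3.69 to 5.35 in WT, and the most Dio2, at 18.4 CPM against 5.64 and 1.35 and 5.02 to 12.4 in WT. Neither was called (0.80 ± 1.59, adjusted p = 0.747 for Cidea and -0.17 ± 0.92, adjusted p = 0.914 for Dio2). Replicate 2 had the most Adrb3, at 302 CPM against 61.2 and 5.08, and the highest adipocyte sum, with no Ucp1 counts, which allows up to 0.0924 CPM. Adrb3 was at 0.126 to 0.251 CPM in WT, so all 3 INSL3-KI libraries lay above it, and the log2 fold change of 9.19 ± 1.75 did not pass (adjusted p = 0.0264). Without INSL3-KI replicate 3 it did, at 9.75 (adjusted p = 0.00694).

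In INSL3-KI against WT at P23, 7 of the 9 genes were tested and 0 were called in either direction by edgeR, where 2.35% of all genes were called lower and 0.212% higher (355 lower and 32 higher, or 308 and 74 with size alone, and 1393 and 836 with DESeq2). At an unadjusted p under 0.05, 4 of the 7 passed, but the share of all genes that did so is not given here for comparison. DESeq2 called 3 lower, namely Cox7a1, Cox8b and Ppargc1a, and 1 higher, Adrb3. Cox8b was at 60.5, 19.2 and 26.0 CPM in WT and 4.85, 2.59 and 0.354 in INSL3-KI, and Cox7a1 at 28.7, 11 and 15.7 in WT and 1.65, 0.739 and 0.420 in INSL3-KI. Neither overlapped. The log2 fold changes were -3.75 ± 1.00 (adjusted p = 0.0596) and -4.28 ± 0.70 (adjusted p = 0.0183). Ppargc1a was at 12.8 to 26.5 CPM in WT and 2.96 to 7.31 in INSL3-KI (-1.81 ± 0.45, adjusted p = 0.0512). Prdm16 overlapped between the genotypes, with a log2 difference of 0.26 ± 0.32 (adjusted p = 0.59), at 4.64 to 8.12 and 7.17 to 10.01 CPM, and Elovl3 was at most 0.772 CPM in all 6 libraries. The skeletal muscle sum was 82054 to 147413 CPM in WT and 16.6 to 978 in INSL3-KI. Without replicate 3 of both groups, Adrb3 differed by 9.95 (adjusted p = 0.0314). Of the wider lists, 1 of 30 other brown and beige genes tested was called, Zic1, at 6.62 to 11.7 CPM in WT and 0 counts in INSL3-KI, and none of 18 paralogs, 12 pan-adipocyte, 7 white adipocyte and 8 complex IV genes.

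With age, Cox7a1 rose in WT gubernaculum. Of the 6 genes tested in WT at P23 against P8, Cox7a1 was called higher, by 4.91-fold (2.30 ± 0.36, adjusted p = 0.00404), and 0 lower, where 6.17% of all genes were called higher and 4.34% lower. This call was lost without any of the 3 WT libraries at P8 (adjusted p = 0.0215, 0.0213 and 0.0212 without replicates 1, 2 and 3). Cox8b was at 8.86 to 10.8 CPM at P8 and at 19.2 to 60.5 CPM at P23 with no overlap and did not pass (1.82 ± 0.40, adjusted p = 0.0121). The skeletal muscle sum was 40652 to 43830 CPM at P8 and 82054 to 147413 at P23, with 7 of 15 genes called higher and 3 lower. Cidea did not overlap between the ages either and was not called (adjusted p = 0.0536), and Dio2, Prdm16 and Ppargc1a overlapped (adjusted p = 0.201, 0.352 and 0.382). Of the wider lists, 1 of 31 other brown and beige genes was lower and 3 higher, 2 of 17 paralogs were higher, 3 of 9 pan-adipocyte genes were higher and 1 of 5 white adipocyte genes was lower (Mest). In INSL3-KI, 0 of 8 genes were called at P23 against P8 in either direction, where edgeR called 0.0% of all genes lower and 0.0% higher, with 3069 genes at an unadjusted p under 0.05, and DESeq2 called 357 lower and 234 higher. Of the 8, Adrb3 (3.52 ± 1.38, adjusted p = 0.24) had an unadjusted p under 0.05, and DESeq2 called 0. All 8 overlapped between the ages. The share of all genes that overlap is not given here, so this count is not read as a result about the 8. Whether the INSL3-KI effect differed between P23 and P8 was tested with an interaction term, and 0 of 8 genes were called by edgeR or DESeq2 or had an unadjusted p under 0.05, where 0.194% of all genes were called lower and 0.0874% higher. The estimate for Adrb3 was 3.49 ± 1.84 (adjusted p = 0.262) and for Ucp1 8.01 ± 4.24 (adjusted p = 0.277), wide enough that neither a larger nor an equal effect at P23 can be read from them.

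Genes whose pattern over the 15 gubernaculum libraries was most like each of these were found by the root mean square difference of centred log2 CPM, among genes with a mean of at least 1 CPM. Nearest to Adrb3 were A530016L24Rik at 0.61, Mrap at 0.66 and Klb at 0.69, where Adrb3 itself departs from its mean by 2.75. Nearest to Cox8b were Cox7a1 at 0.51 and Lrrc39 at 0.63. Nearest to Cox7a1 were Fa2h at 0.49, Cox8b at 0.51 and Cntnap2 at 0.53. Nearest to Ucp1, which departs from its mean by 2.17, were Apoc4 at 1.08, Camk4 at 1.25 and Cpn2 at 1.31. Ppargc1a was closest to Mllt3, Aimp2 and Sms (0.25 to 0.29), Prdm16 to Swap70, Wwox and Fam217b (0.16 to 0.17), Dio2 to Pde4d, Zan and Syne1 (0.64 to 0.66) and Cidea to Sept2, Gm14226 and St8sia2 (0.76 to 0.82).

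In testis, Dio2 and Ppargc1a fell and Elovl3, Cox7a1 and Cidea rose in INSL3-KO at P23. Ucp1 was at 17 counts or fewer and Cox8b at 8 counts or fewer in all 24 libraries, and Ucp1 was at 0 in all 3 INSL3-KO libraries at P23. In INSL3-KO against WT at P23, both groups in the second table, 2 of 6 genes tested were called lower and 3 higher, where 33.4% of all genes were called lower and 31.1% higher (5584 lower and 5199 higher of 16732, or 4537 and 7188 with size alone). With shares that large, the counts called are not read as a result about the 6. Dio2 fell from 6.81 to 9.35 CPM to 0.552 to 1.04 CPM (-3.38 ± 0.29, adjusted p = 1.55e-06), and Ppargc1a fell from 4.61 to 5.40 CPM to 0.907 to 1.66 CPM (-1.79 ± 0.27, adjusted p = 0.000107). Elovl3 rose from 0.242 to 0.374 CPM to 6.55 to 8.14 CPM (4.75 ± 0.26, adjusted p = 3.74e-08), Cox7a1 from 0.564 to 0.914 CPM to 5.66 to 8.46 CPM (3.36 ± 0.26) and Cidea from 7.09 to 9.43 CPM to 27.1 to 30.4 CPM (1.84 ± 0.12). The pan-adipocyte sum was 1572 to 1580 CPM in these WT libraries and 245 to 253 in INSL3-KO. Of its 12 genes, however, 4 were called lower and 5 higher, with a median log2 fold change of 0.93. The sum and the median thus moved in opposite ways. All 6 fibroblast, all 6 smooth muscle and all 6 macrophage genes were called higher there, with sums of 2568 to 2649, 685 to 709 and 617 to 648 CPM against 478 to 503, 197 to 200 and 138 to 145 in WT. The part of these lists in the levels of the 9 genes was not tested.

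At P40, 7 genes were tested in INSL3-KI against WT testis, and Ppargc1a was called lower (-1.20 ± 0.21, adjusted p = 0.00262) and Elovl3 (2.68 ± 0.37), Cox7a1 (2.05 ± 0.36) and Cidea (1.53 ± 0.28) higher, where 22.1% of all genes were called lower and 25.6% higher (3690 lower and 4264 higher, or 2458 and 6583 with size alone). With such shares, the counts called are not read as a result about the 7. Dio2, at 4.47 to 6.53 CPM in WT and 0.342 to 2.17 in INSL3-KI, did not pass (adjusted p = 0.016). The pan-adipocyte sum was 1506 to 1679 CPM in WT and 278 to 475 in INSL3-KI. Of its 12 genes, 3 were called lower and 3 higher, with a median log2 fold change of 0.95, opposite to the sum. In the other lists, 6 of 6 macrophage, 5 of 6 smooth muscle and 3 of 6 fibroblast genes were called higher. Their part was not tested. With library size alone, where the median of all genes is 0.70 against 0.09, Ppargc1a was no longer called, nor was it without INSL3-KI replicate 3 or WT replicate 2, and without WT replicate 1 the number called higher was 1. In INSL3-KI at P23 against WT, a comparison across tables, 0 of 6 genes were called, where 11.8% of all genes were called lower and 8.81% higher (1966 and 1462, or 1450 and 3607 with size alone). 3 of the 6 had an unadjusted p under 0.05, and DESeq2 called 1 lower, where it called 3087 of all genes lower and 2073 higher. At P8, 0 of 7 genes were called in INSL3-KI, where 3.25% of all genes were called lower and 3.03% higher (511 and 476, or 315 and 607 with size alone). An unadjusted p under 0.05 was found for 2 of the 7. DESeq2 called 0, where it called 1135 of all genes lower and 1013 higher. For neither age is the share of all genes at an unadjusted p under 0.05 given here. The P8 testis libraries labelled INSL3-KO held Insl3 at 13.4 to 17.8 CPM, against 63.4 to 79.5 in WT, and stand in the other table. In them 1 of 7 was called higher, Cox7a1, from 0.449, 0.925 and 0.978 CPM in WT to 3.04, 2.33 and 2.52 CPM (1.76 ± 0.36, adjusted p = 0.00492), and 0 lower, where 5.44% of all genes were called higher and 8.37% lower (855 and 1316, or 1122 and 1066 with size alone). Cidea passed the adjusted p there without reaching 2-fold (0.80 ± 0.16, adjusted p = 0.00531). Prdm16 was called in no testis comparison and stood between 3.72 and 14.4 CPM in all 24 libraries. The Cox7a1 call was lost without WT replicate 2 and without each of the 3 INSL3-KO libraries.

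**Figure D4:**
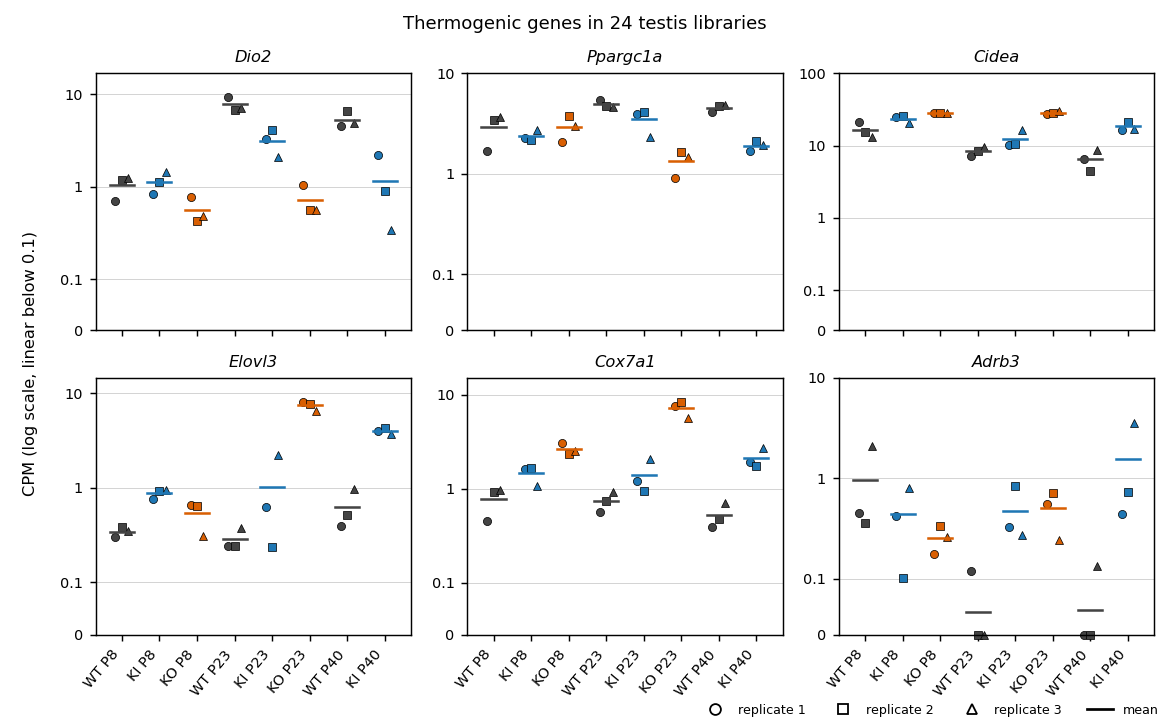
CPM of 6 of the genes (vertical axis, log scale and linear below 0.1) in each testis library, with 1 point per library, a shape for each replicate and a bar at the group mean. Elovl3 sits at 6.55 to 8.14 CPM in INSL3-KO at P23 and at 3.67 to 4.31 CPM in INSL3-KI at P40, above the 0.242 to 0.973 CPM of WT at those ages.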

How the data were processed

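Bulk poly(A) RNA of 39 libraries, 13 groups of 3, was sequenced as paired-end reads. Per the labels, the authors aligned reads with HISAT2 to GRCm38. The counter and annotation are not given in the sources used here. The authors deposited raw read counts and FPKM (fragments scaled by gene length and library size) per gene in 2 tables, 27 libraries in the first and 12 in the second, joined here on the 21561 Ensembl genes both list. These genes hold 94.2% to 97.9% of each library's counts. Raw counts were tested in edgeR 4.0.16 (R 4.3.3) with TMM scaling, filterByExpr (minimum count 10, total 15) and the quasi-likelihood test, on the groups compared. Benjamini-Hochberg adjustment ran over all genes tested, and a call needed an adjusted p under 0.01 and a fold of at least 2. Standard errors are the log2 fold change divided by the root of F. DESeq2 1.42.0 and limma 3.58.1, on log2(FPKM + 1) and log2(FPKM + 0.1), were alternatives, with no filter, library size alone, all groups in 1 fit, a replicate block and each library left out. Log2 ratios to the pan-adipocyte sum and to Adipoq used an added 0.5 counts and exact permutation tests. FPKM served only to compare levels between genes. Scripts were tested on simulated data.

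The 9 genes and the marker lists were chosen with earlier results of these data known. Every one of the 9 is described in each gubernaculum group. In testis a gene is given values where called or at a mean of at least 1 CPM, and list genes are named by largest fold, at most 4 per direction. Some genes that these rules would name are not reported here. Adipocyte genes and paralogs named beside a gene of the 9 were chosen after their values were seen. The labels call the 3 libraries of a group biological replicates, and p-values measure the spread between them. That spread was often narrow in the second table. There the pan-adipocyte sum was 1572 to 1580 CPM in WT testis at P23 and 184 to 189 in INSL3-KO testis at P8. In the first table it was 378 to 1016 CPM in WT testis at P8, but 783 to 827 in WT gubernaculum at P8. The reason was not tested. Small p-values that involve INSL3-KO depend on this spread. Intervals and limits on a count of 0 (3 counts) cover counting error only.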

Additional observations from a re-analysis of the deposited data

Results flagged for a closer look

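For several genes every mutant library lay above every WT library in one tissue or age and below in another. None of these differences was itself tested. Adrb3 had a log2 fold change of 6.61 in INSL3-KO against WT gubernaculum at P8 (called) and of -1.88 in P8 testis (edgeR adjusted p = 0.0735, not called), and the -1.88 also lay opposite to P23 testis INSL3-KO, where Adrb3 had 21, 31 and 10 counts against 3, 0 and 0 in WT. In P8 testis, Adrb3 was at 0.361, 0.449 and 2.07 CPM in the WT libraries, so 1 of them stood far above the rest. INSL3-KO was at 0.176 to 0.332 CPM there. Cox7a1 had -2.81 in INSL3-KI gubernaculum at P8 (called) against 0.95 in INSL3-KI testis at P8 (adjusted p = 0.119, not called). At P23 it had -4.28 (adjusted p = 0.0183) against 0.96 (adjusted p = 0.102), neither of them called. Elovl3 had 1.42 in INSL3-KI testis at P8 (adjusted p = 0.027, not called), while in INSL3-KI gubernaculum at P8 it had 0, 0 and 2 counts against 3, 5 and 10 in WT. Of the testis values, those of INSL3-KO at P8 and INSL3-KI at P23 compare libraries of different tables. Groups of 3 libraries are too small to test for outlying samples.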

How the results depend on the processing

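Of the counts of called genes over all settings, 266 were within 1.5 times the main count and 44 were not. Of the log2 fold changes, 539 kept direction and side of the threshold, 24 lost the call, 18 gained it and 24 reversed. The cause was not tested unless fewer libraries or genes entered. In INSL3-KI against WT at P8, 1 gene in place of 2 was called higher with no filter, a replicate block, limma with a pseudocount of 1, or 1 fit, and 1 to 2 with a library left out. In INSL3-KO at P8 the single fit called 0 lower and 1 higher. In INSL3-KI against WT gubernaculum at P23, DESeq2 and the single fit called 3 lower and 1 higher, limma 1 lower, and leaving out libraries gave 0 to 1 higher. In WT with age, DESeq2 called 2 higher, the block 0, and left-out libraries 0 to 2. In testis, the block called 0 higher in INSL3-KO at P8 (0 to 2 with a library left out). In INSL3-KI at P23, DESeq2 called 1 lower (0 to 1). In INSL3-KO at P23, limma called 0 lower with a pseudocount of 1 and 1 with 0.1. At P40, DESeq2 called 2 lower and library size or limma 0 (0 to 2, and 1 to 4 higher).

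Reversals lay mostly at P23, where INSL3-KI libraries differ. Against WT, Dio2 was at 0.10 with library size alone, at 0.0055 without replicate 3 of both groups (chosen after seeing the data) and at -1.501 to 0.29 with libraries left out. Cidea was at -1.61 with the replicate block, at -0.21 and -1.08 with limma (pseudocounts 1 and 0.1) and at -2.79 to 1.31 with libraries left out, the lowest without INSL3-KI replicate 1. For INSL3-KI with age, Ucp1 was at -2.29 with the block, -0.34 with limma at 0.1 and -4.17 to 3.60 with libraries left out. Dio2 was at -0.0706, -0.0306 with limma at 1, -0.21 at 0.1 and -0.97 to 1.19, and Cidea at -1.94, -0.75, -1.74 and -2.94 to 1.15. Prdm16 ranged from -0.19 to 0.10 and Ppargc1a from -0.52 to 0.0857. Per Adipoq count in place of the adipocyte sum, log2 ratios against WT at P8 were -5.97 for Ucp1 and -3.43 for Adrb3 in INSL3-KI, and -3.73 and -3.99 in INSL3-KO. Between the mutants they were 0.54 for Cidea and 0.56 for Adrb3. With libraries left out, Elovl3 per adipocyte sum in INSL3-KO ranged from -0.78 to 0.74 and Adrb3 between the mutants from -0.52 to 0.32. At P23 the ratio to Adipoq could not be formed, since WT replicate 3 had 0 Adipoq counts. In no comparison did all 3 same-numbered pairs correlate above 0.1 (range -0.235 to 0.463), so the number was not taken to pair the libraries. Pairs 2 and 3 of INSL3-KI and WT gubernaculum at P23 (0.351 and 0.463) and pairs 1 and 3 in testis at P8 (0.237 and 0.331) each matched their own number best.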
